A study of Mus musculus with 12 samples.

Results

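The genes described here are Eps8, its 3 relatives Eps8l1, Eps8l2 and Eps8l3, and 5 genes whose proteins work beside Eps8: Abi1, Abi2, Sos1, Sos2 and Baiap2. They are 9 of 27308 gene symbols on a mouse array. All probes carrying those symbols were taken, 19 of 56605, and each probe was kept apart. Of these, 15 were tested, among 35230 tested probes in all. Eps8l1 was chosen by its normalized log2 signal on these arrays, which was low in KO, so its levels and differences are a description without a test.

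Hypothalamus RNA from male mice was hybridized to 12 single-color Agilent arrays, 3 in each of 4 groups. WT were wild-type control mice and KO were homozygous Asmt-knockout control mice. Swimming WT and swimming KO were mice of the same genotypes that had been trained to swim daily. All were C57BL/6 mice, labelled 6 to 7 weeks old, which the methods give as the age at the start of training. The methods describe behavioural tests, a forced swim test among them, in all 4 groups. Knockout mice descended from founders made with Cas9, which carried a 20 bp deletion in Asmt and were crossed back to wild-type littermates for 3 generations, and no second knockout line was measured here. Asmt encodes the last enzyme of melatonin synthesis. The authors state that C57BL/6J mice have low Asmt activity from birth. They report no significant effect of the knockout on serum melatonin.

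The arrays measured signal above background for 61.62% to 67.91% of spots, and no spot was saturated. Of 13 hypothalamic marker genes (Avp, Oxt, Pomc, Hcrt and others), all were tested and 12 were well above background on every array. The 1 Asmt probe was well above background on 0 of 12 arrays, so the genotype could not be checked on the arrays. KO replicates 1 and 2 shared slide 1 with WT, and KO replicate 3 shared slide 2 with both swimming groups. Swimming KO versus swimming WT thus lay within slide 2. Between WT and either swimming group, swimming and slide changed together and cannot be told apart. When the slide is a block, KO versus WT is KO replicates 1 and 2 against WT within slide 1, and the interaction is the difference between those within-slide values. In swimming WT versus WT, swimming KO versus KO and swimming KO versus WT the blocked value leans on KO replicate 3, the 1 array that ties the groups across the slides. Precision is limited by having 3 arrays a group. In bulk tissue, fewer cells of a type and less RNA per cell cannot be told apart.

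Eps8 is an adaptor first known as a substrate of the EGF receptor, and it also caps and bundles actin filaments. Bound to the scaffold Abi1, it joins Sos1, an exchange factor for Ras, in a complex that turns on Rac, the GTPase that drives actin branching at the cell edge. Abi1 and its relative Abi2 are also subunits of the WAVE complex, which passes the Rac signal to actin, and Baiap2 (IRSp53) bends the membrane and binds Eps8 in filopodia. In neurons such actin control is known for its part in growth cones and dendritic spines.

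The Eps8 relatives are each read by 1 or 2 probes of 60 bases, and a stretch of 30 bases (bases 16 to 45 of the probe) is printed for each because the description of Eps8l1 rests on which of them was hybridized. The bases are those of the array annotation, 5′ to 3′ on the plus strand of build mm9, and no base is singled out by capitals. Annotation of exons and UTRs in that build was not used here. The first Eps8l1 probe, at chr7:4430514-4430573, is annotated to transcript variant 2, and the second, at chr7:4424156-4424215, to variant 1.
Eps8l1 probe 1: atcccggctcgatcacaaaaagtgatgaga
Eps8l1 probe 2: ctcctggtgaaaatgaactatggacctcgc
Eps8l2: gcggggaagagggcagtcgcgtgtacagcc
Eps8l3: attcccagtcttactcctgatctctttagt

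Eps8l1, an Eps8 relative that can also bind Abi1, had its lowest signal in KO. On the first probe the normalized log2 signal was 5.40, 6.41 and 5.93 in WT. It was 3.72, 4.08 and 4.19 in KO. It was 5.59, 5.10 and 5.82 in swimming WT and 5.95, 5.53 and 6.48 in swimming KO. All 3 KO arrays lay below the other 9 arrays, and WT, swimming WT and swimming KO overlapped one another. Before normalization the scanner's processed signal was 37.3, 71.3 and 50.3 (linear units) in WT and 10.98, 14.68 and 18.41 in KO. It was 54.1, 38.3 and 61.7 in swimming WT and 77.8, 53.3 and 97.7 in swimming KO, so the separation of KO was already there without the scaling between arrays.

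The group means of that probe were 5.91 ± 0.51 in WT, 4.00 ± 0.25 in KO, 5.50 ± 0.37 in swimming WT and 5.99 ± 0.48 in swimming KO (normalized log2 signal, SD, n = 3). KO minus WT was a log2 difference of -1.92 and swimming KO minus KO one of 1.99, both set against KO arrays of which 1 of 3 was well above background. Swimming WT minus WT was -0.41, swimming KO minus swimming WT was 0.49 and swimming KO minus WT was 0.07. The swimming by genotype interaction, (swimming KO - KO) - (swimming WT - WT), was 2.40. In order of mean level, swimming KO, WT and swimming WT were neighbours that did not differ beyond their spread, and KO stood apart below them.

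**Figure D1:**
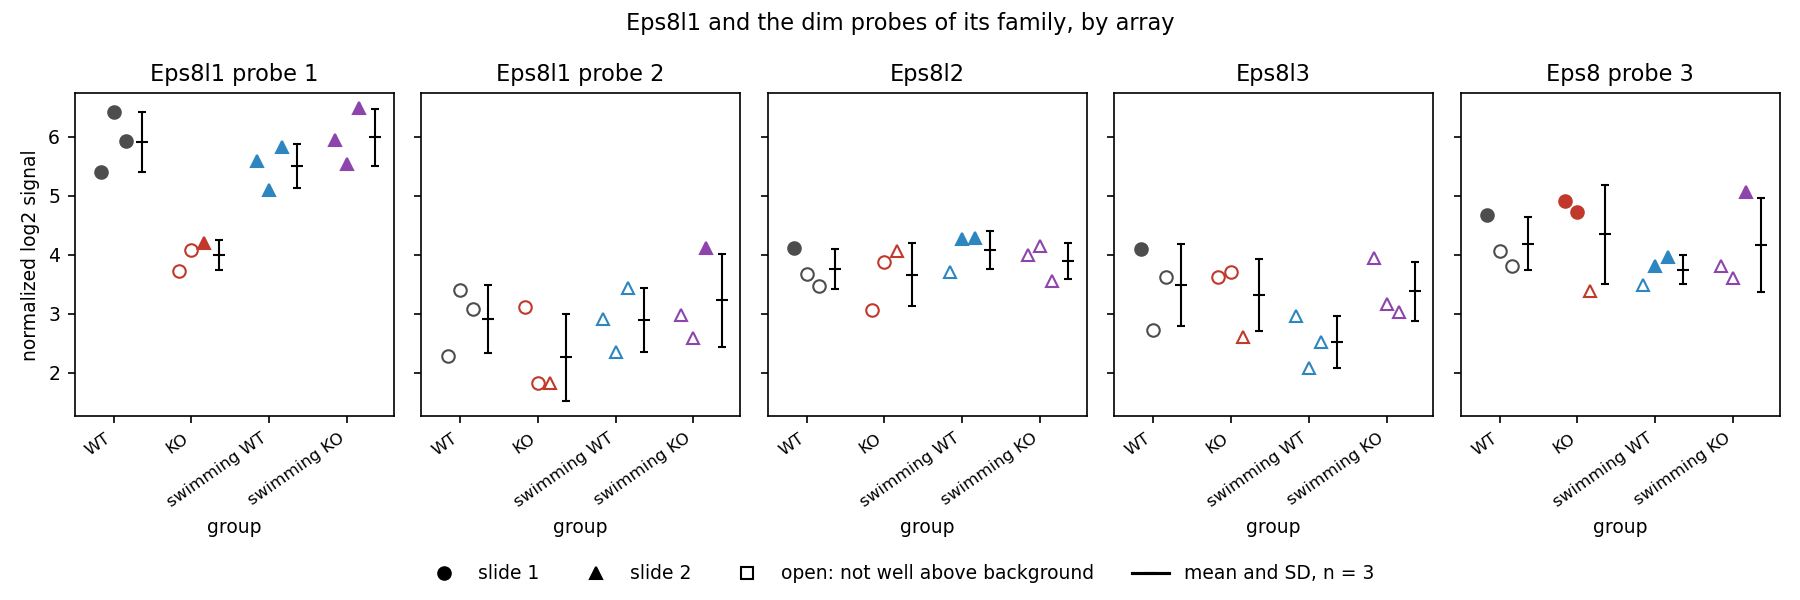
Normalized log2 signal (y axis) on each array by group (x axis) for the 2 Eps8l1 probes, Eps8l2, Eps8l3 and the third Eps8 probe. Each point is 1 array, filled when well above background, with the shape giving the slide; bars are mean and SD of 3 arrays. On Eps8l1 probe 1 the 3 KO arrays sit between 3.72 and 4.19, below all others, while most points of the other 4 probes together are open; levels of different probes are not comparable.

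The low KO values were at the edge of detection. Probe 1 was above background on every WT, swimming WT and swimming KO array and on 1 of 3 KO arrays, replicate 3, and it passed the filter through the groups in which it was high. The lowest signal called well above background was 4.38 on KO replicate 1 and 4.23 on KO replicate 2, above what the probe read there. With those arrays set to that limit, an alternative chosen after the data were seen, KO minus WT was -1.65 and swimming KO minus KO was 1.72. Under normexp background correction, which adds an offset of 50 to every signal, the same differences were -0.64 and 0.71.

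The KO arrays were on both slides, and WT on slide 1 alone. On slide 1, KO replicates 1 and 2 read 3.72 and 4.08 against 5.40 to 6.41 in WT. On slide 2, KO replicate 3 read 4.19 against 5.10 to 6.48 in swimming WT and swimming KO. With the slide as a block, KO minus WT was -2.01 and swimming KO minus KO was 1.79, the second resting on KO replicate 3 alone. Leaving out each array in turn gave -2.18 to -1.67 for KO minus WT and 1.74 to 2.22 for swimming KO minus KO.

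The second Eps8l1 probe was too dim to give a second reading of that pattern. It was well above background on 1 of 12 arrays, swimming KO replicate 3, and was not tested. Its normalized log2 signal was 2.28, 3.40 and 3.08 in WT and 3.12, 1.84 and 1.83 in KO. It was 2.91, 2.35 and 3.44 in swimming WT and 2.98, 2.59 and 4.11 in swimming KO. The KO mean, 2.26, was the lowest of the 4 groups, but the KO values overlapped those of WT, swimming WT and swimming KO. Whether the variants differ was not tested.

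Markers of epithelium, which a dissected brain region could hold at its edges, were read beside Eps8l1. Of 9 epithelial markers, 6 were tested, 4 were well above background on all arrays and 0 were below it on every array. Their summed signal was 873 to 906 in WT, 1025 to 1490 in KO, 848 to 977 in swimming WT and 789 to 1142 in swimming KO. The KO range lay above that of WT, opposite to Eps8l1. Krt18, a keratin of simple epithelia, had mean log2 signals of 9.35 in WT and 9.74 in KO, and its correlation with Eps8l1 over the 12 arrays was -0.80, the farthest from 0 of the 9 markers, the others running from -0.59 (Krt8) to 0.03 (Grhl2). The markers of anterior pituitary summed to 197 to 281 in WT, 250 to 3297 in KO, 243 to 1972 in swimming WT and 243 to 2189 in swimming KO. Tshb and Lhb were well above background on 12 of 12 arrays, Cga and Fshb on 5, Prl on 3, and Gh and Pou1f1 on 0. Cga had mean log2 signals of 3.53 in WT, 8.13 in KO, 5.30 in swimming WT and 4.87 in swimming KO. The part of either tissue in the Eps8l1 values was not tested.

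Eps8l2, known for hair cell stereocilia, was dim throughout. Its probe at chr7:148547806-148547865 was well above background on 3 of 12 arrays, 1 of WT and 2 of swimming WT. Its log2 signal was 4.12, 3.68 and 3.47 in WT and 3.06, 3.88 and 4.06 in KO. It was 3.72, 4.27 and 4.28 in swimming WT and 3.99, 4.14 and 3.55 in swimming KO. All 4 groups overlapped, and differences were not detectable at this signal. Eps8l3, at chr3:107695731-107695790, was well above background on 1 of 12 arrays, a WT array at 4.10, and read 2.08 to 3.95 on the rest. Neither probe was tested.

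Eps8 itself differed little between groups. Its first probe, at chr6:137426698-137426757 on the minus strand, read 11.49, 11.67 and 11.54 in WT and 11.58, 11.66 and 11.56 in KO. It read 11.58, 11.55 and 11.60 in swimming WT and 11.53, 11.48 and 11.44 in swimming KO. Swimming KO lay below KO and below swimming WT without overlap, by small steps. Swimming KO minus KO was -0.12 (standard error 0.06 and adjusted p = 0.279, limma), and KO minus WT was 0.03 (95% interval -0.10 to 0.16).

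The second Eps8 probe covers 190 bases of genome, chr6:137475722-137475911, with its 60 bases and so reads across a gap. It read 5.60, 5.61 and 5.33 in WT, 5.71, 5.58 and 5.70 in KO, 5.59, 5.59 and 5.81 in swimming WT and 5.69, 5.61 and 5.25 in swimming KO. No pair of groups separated, and KO minus WT was 0.16 (95% interval -0.12 to 0.43). The third, at chr6:137596697-137596756, was well above background on 6 of 12 arrays, read 3.39 to 5.07 with all groups overlapping, and was not tested. A KO difference of the size seen for Eps8l1 lay outside the intervals of both tested Eps8 probes. Eps8l1 was chosen for its low KO signal, so that size is no reference for other genes.

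Leaving out Eps8l1, 14 probes of 6 genes were tested by limma, which fits the means of the 4 groups. A probe is said to be called where its unadjusted limma p was 0.05 or less. None of the 14 was both called and changed 2-fold or more, the screening criterion of the methods, in any of the 6 comparisons. That criterion took 0.227% of all tested probes in KO versus WT, 2.19% in swimming WT versus WT, 1.21% in swimming KO versus KO, 0.25% in swimming KO versus swimming WT, 2.74% in swimming KO versus WT and 0.602% in the interaction. None of the 14 had an adjusted p under 0.05, beside 0.0199% of all tested probes in swimming KO versus KO and 0% in the other 5 comparisons, and the smallest adjusted p was 0.0693. Their largest log2 difference in size was 0.37, a fold of 1.29.

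KO versus WT compares the genotypes in mice that were not trained. There 1 of 14 probes was called, and was lower, a share of 7.14% beside 5.47% of all tested probes (2.38% higher and 3.09% lower). The groups did not overlap in 2 of 14, beside 8.63% of all. The median log2 difference of the 14 was 0.02, beside -0.01 over all tested probes. The 1 call was the second Abi2 probe, lower in KO by a log2 difference of -0.28 (adjusted p = 0.846 from limma), and within slide 1 it was -0.15 and not called. With the slide as a block 0 of 14 were called, beside 5.48%.

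**Figure D2:**
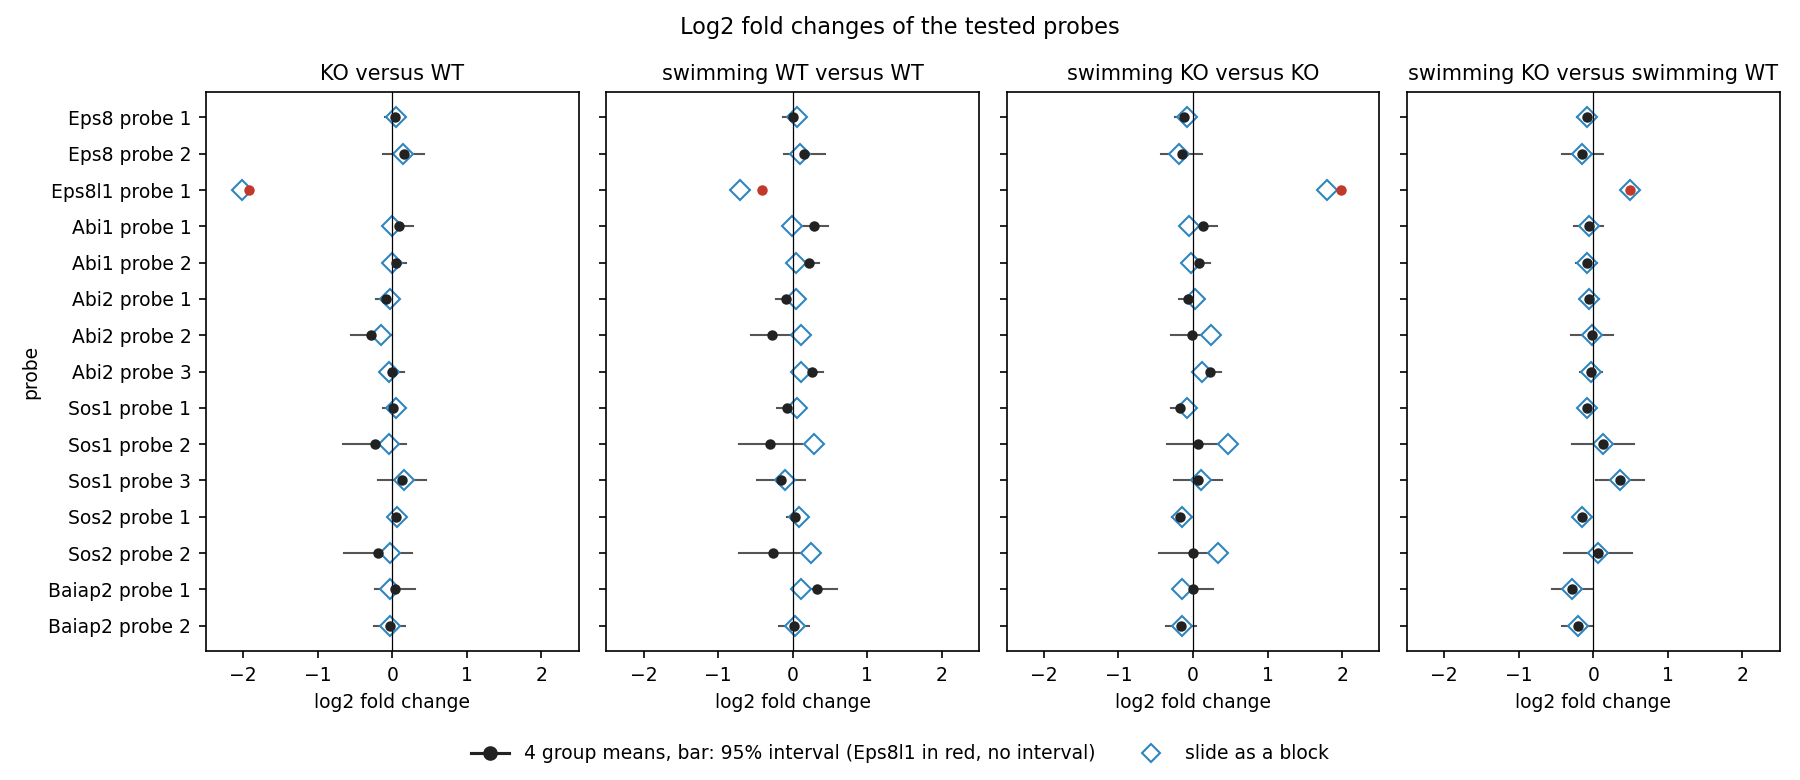
Log2 fold change (x axis) of each tested probe (rows) in 4 comparisons. Circles are differences of group means with 95% intervals from limma, Eps8l1 in red without an interval, and open diamonds are the same differences with the slide as a block. Eps8l1 sits at -1.92 and 1.99 in KO versus WT and swimming KO versus KO, and no other circle is farther from 0 than 0.36 in these panels.

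Abi1, the scaffold that ties Eps8 to Sos1, was higher in swimming WT than in WT on both probes. The first probe, at chr2:22796064-22796123 on the minus strand, read 11.08, 11.30 and 11.12 in WT and 11.12, 11.19 and 11.44 in KO. It read 11.40, 11.45 and 11.49 in swimming WT and 11.42, 11.38 and 11.35 in swimming KO. Swimming WT and swimming KO lay above WT without overlap, and the KO array on slide 2, at 11.44, lay with them and away from the KO arrays on slide 1. Swimming WT minus WT was 0.28 (standard error 0.09, adjusted p = 0.106 from limma) and became -0.01 with the slide as a block.

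The second Abi1 probe, at chr2:22797450-22797509, read 9.15, 9.20 and 9.25 in WT, 9.16, 9.22 and 9.36 in KO, 9.36, 9.39 and 9.49 in swimming WT and 9.31, 9.30 and 9.37 in swimming KO. It followed the first, with slide 2 arrays above slide 1 arrays in KO as well. Swimming WT minus WT was 0.21 (adjusted p = 0.101 from limma) and became 0.05 when the slide was blocked, and both probes were called only without the block. Swimming KO minus KO was 0.13 on the first probe and 0.08 on the second, and neither was called.

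Abi2, which can take the place of Abi1 in the WAVE complex, gave different answers on its 3 probes. The first, at chr1:60537669-60537728, read 12.70, 12.71 and 12.73 in WT, 12.68, 12.67 and 12.54 in KO, 12.55, 12.63 and 12.68 in swimming WT and 12.56, 12.53 and 12.62 in swimming KO. The second, at chr1:60501487-60501546, read 9.49, 9.19 and 9.27 in WT, 9.15, 9.18 and 8.77 in KO, 9.03, 9.08 and 9.0 in swimming WT and 9.18, 9.03 and 8.85 in swimming KO. WT was the highest group on both. The third, at chr1:60491217-60491276, read 7.16, 7.25 and 7.12 in WT, 7.13, 7.13 and 7.28 in KO, 7.39, 7.54 and 7.37 in swimming WT and 7.38, 7.39 and 7.45 in swimming KO. On that probe WT and KO lay below swimming WT and swimming KO without overlap.

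For the third Abi2 probe, swimming WT minus WT was 0.26 (standard error 0.07, adjusted p = 0.0933 from limma) and swimming KO minus KO was 0.23 (adjusted p = 0.157), both called. For the second, swimming WT minus WT was -0.28 and not called, and swimming KO minus WT was -0.30 and called (adjusted p = 0.146). The probes of this gene thus opposed each other in swimming WT versus WT, and the second and the third are annotated to other Abi2 transcripts than the first. With the slide as a block, swimming WT minus WT was 0.11 on the third probe and also 0.11 on the second, neither called. Swimming KO minus KO on the third then fell to 0.13, and swimming KO minus WT on the second turned to 0.10, again with no call.

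**Figure D3:**
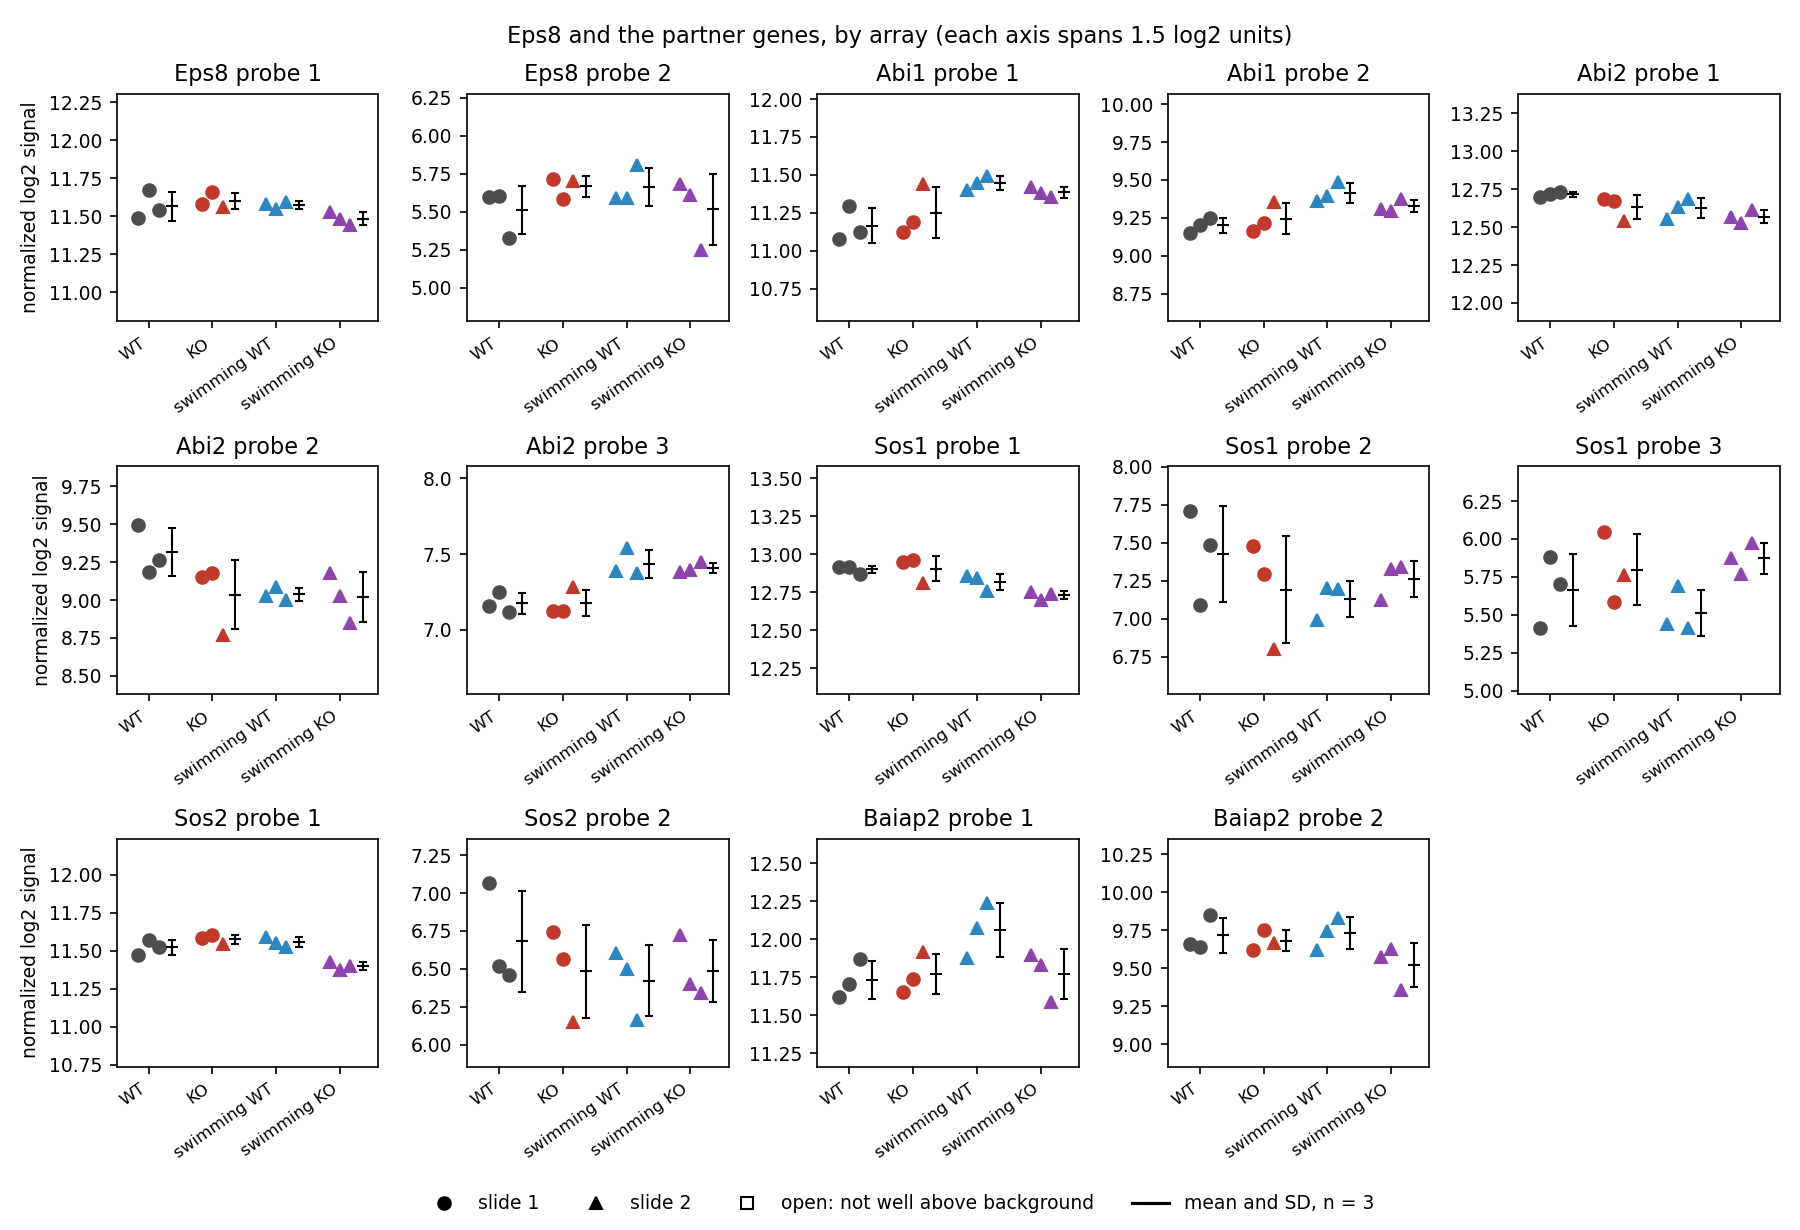
Normalized log2 signal (y axis) on each array by group (x axis) for the 14 tested probes of Eps8 and its partners. Each point is 1 array, with the shape giving the slide, and bars are mean and SD of 3 arrays; all axes span the same number of log2 units. The slide 2 array of KO (triangle) sits with swimming WT and swimming KO on both Abi1 probes.

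Sos1, the exchange factor that opens Ras and, in the Eps8 complex, Rac, was lower in swimming KO than in KO on its first probe, at chr17:80793433-80793492 on the minus strand. That probe read 12.91, 12.92 and 12.87 in WT, 12.95, 12.96 and 12.81 in KO, 12.86, 12.84 and 12.76 in swimming WT and 12.76, 12.70 and 12.74 in swimming KO. Swimming KO lay below KO and WT without overlap, and also below swimming WT by a margin smaller than the spread within either group. Swimming KO minus KO was -0.17 (standard error 0.06 and adjusted p = 0.165, limma) and was called. Blocking on the slide gave -0.08 and no call.

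The other Sos1 probes did not follow it. The second, at chr17:80831591-80831650, read 7.71, 7.09 and 7.48 in WT, 7.48, 7.30 and 6.80 in KO, 7.00, 7.20 and 7.20 in swimming WT and 7.12, 7.33 and 7.34 in swimming KO, with all groups overlapping. The third, at chr17:80804362-80804421, read 5.41, 5.88 and 5.70 in WT, 6.05, 5.58 and 5.77 in KO, 5.44, 5.69 and 5.42 in swimming WT and 5.88, 5.77 and 5.97 in swimming KO. Swimming KO lay above swimming WT there, by 0.36 (standard error 0.14, adjusted p = 0.729 from limma), both groups being on slide 2. Both probes carry cDNA clone records in the annotation, and the first the reference transcript of Sos1.

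Sos2, the close relative of Sos1, was lower in swimming KO than in every other group on its first probe. At chr12:70684873-70684932 on the minus strand it read 11.47, 11.57 and 11.53 in WT, 11.58, 11.60 and 11.54 in KO, 11.59, 11.55 and 11.53 in swimming WT and 11.43, 11.37 and 11.40 in swimming KO. All 3 swimming KO arrays lay below the other 9. Swimming KO minus swimming WT was -0.16 (standard error 0.05, adjusted p = 0.654 from limma), within slide 2. Swimming KO minus KO was -0.18 (adjusted p = 0.147) or, blocking on the slide, -0.14, both of them calls.

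The interaction for that Sos2 probe was -0.21 (adjusted p = 0.553 from limma), the 1 of 14 probes called in the interaction, beside 7.76% of all tested probes (3.58% higher and 4.18% lower). With the slide as a block it was -0.23, again the 1 call, beside 10.9%. The second Sos2 probe, at chr12:70695402-70695461, read 7.07, 6.52 and 6.46 in WT, 6.74, 6.57 and 6.15 in KO, 6.60, 6.50 and 6.16 in swimming WT and 6.72, 6.40 and 6.34 in swimming KO. All groups overlapped on it, and its interaction was 0.26 (95% interval -0.39 to 0.91), which holds the value of the first.

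Baiap2, the membrane-bending partner of Eps8, was highest in swimming WT on its first probe, at chr11:119863876-119863932. It read 11.62, 11.71 and 11.87 in WT, 11.66, 11.74 and 11.92 in KO, 11.88, 12.07 and 12.24 in swimming WT and 11.90, 11.83 and 11.59 in swimming KO. Swimming WT lay above WT by 0.33 (standard error 0.12, adjusted p = 0.132 from limma), and by 0.11, not called, with the slide as a block. Swimming KO was below swimming WT by a log2 difference of -0.29 (adjusted p = 0.73), within slide 2, although 1 swimming KO array read above the lowest swimming WT array.

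The second Baiap2 probe, at chr11:119859956-119860015, read 9.66, 9.64 and 9.85 in WT, 9.62, 9.75 and 9.67 in KO, 9.62, 9.74 and 9.83 in swimming WT and 9.58, 9.63 and 9.36 in swimming KO. It was also lower in swimming KO than in swimming WT, by a log2 difference of -0.21 (adjusted p = 0.741 from limma). With both probes averaged, swimming KO minus swimming WT was -0.25 and called. The probes are annotated to transcript variants 2 and 1, and in swimming WT versus WT only the first was called.

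Read against all tested probes, the counts of the 14 were as follows. Swimming WT versus WT asks what swimming changed in wild-type mice. WT lay on slide 1 and both swimming groups on slide 2. Swimming and slide thus cannot be told apart there, or in swimming KO versus WT. In swimming WT versus WT 4 of 14 were called, all higher (2 of Abi1, 1 of Abi2 and 1 of Baiap2), beside 25.9% of all tested probes (11.7% higher and 14.2% lower). The groups did not overlap in 7 of 14, beside 37.6%. In swimming KO versus KO, the same question in knockout mice, 3 of 14 were called, 1 higher (Abi2) and 2 lower (Sos1 and Sos2), beside 21.1% (8.1% higher and 13% lower), and the groups did not overlap in 4 of 14, beside 21.5%. Against WT, swimming KO had 6 of 14 called, 2 higher and 4 lower, beside 30.4% (12.6% higher and 17.9% lower), and the groups did not overlap in 8 of 14, beside 44.1%. With the slide as a block these counts were 0, 1 and 0, beside 6.17%, 9.06% and 4.91% of all tested probes. The median log2 differences of the 14 were 0.01, -0.01 and -0.10 in that order, beside -0.04, -0.04 and -0.07 over all tested probes.

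Swimming KO versus swimming WT, the genotype comparison among swimmers, lay within 1 slide. There 4 of 14 probes were called, 1 higher (the third Sos1 probe) and 3 lower (the first Sos2 probe and both of Baiap2), a share of 28.6% beside 6.71% of all tested probes (2.17% higher and 4.55% lower). With the slide as a term, which changes the spread but not the difference, 3 of 14 were called, beside 10.3%. The median of the 14 was -0.07, beside -0.01 over all. Without swimming WT replicate 3 or without swimming KO replicate 3 the count was 1, and without swimming WT replicate 2 or without swimming KO replicate 1 it was 2. The groups did not overlap in 4 of 14, beside 19.6%.

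Other probes near Eps8l1 had smaller differences than Eps8l1, which was chosen for its low signal in KO. Within 100 kb of its first probe, 13 probes of 7 other genes were tested: Rdh13, D630041G03Rik, Ppp1r12c, Tnnt1, Tnni3, Dnaaf3 and Syt5. In KO versus WT their log2 differences ran from -0.33 (Rdh13) to 0.22 (Dnaaf3), and 0 of 13 were called, beside 5.47% of all tested probes. The closest, a probe of Ppp1r12c 2823 bases away, had -0.04. Between swimming KO and KO, 1 Rdh13 probe had -0.28 (adjusted p = 0.131 from limma) and 1 Tnni3 probe 0.35 (adjusted p = 0.198), and the rest lay between -0.21 and 0.11.

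**Figure D4:**
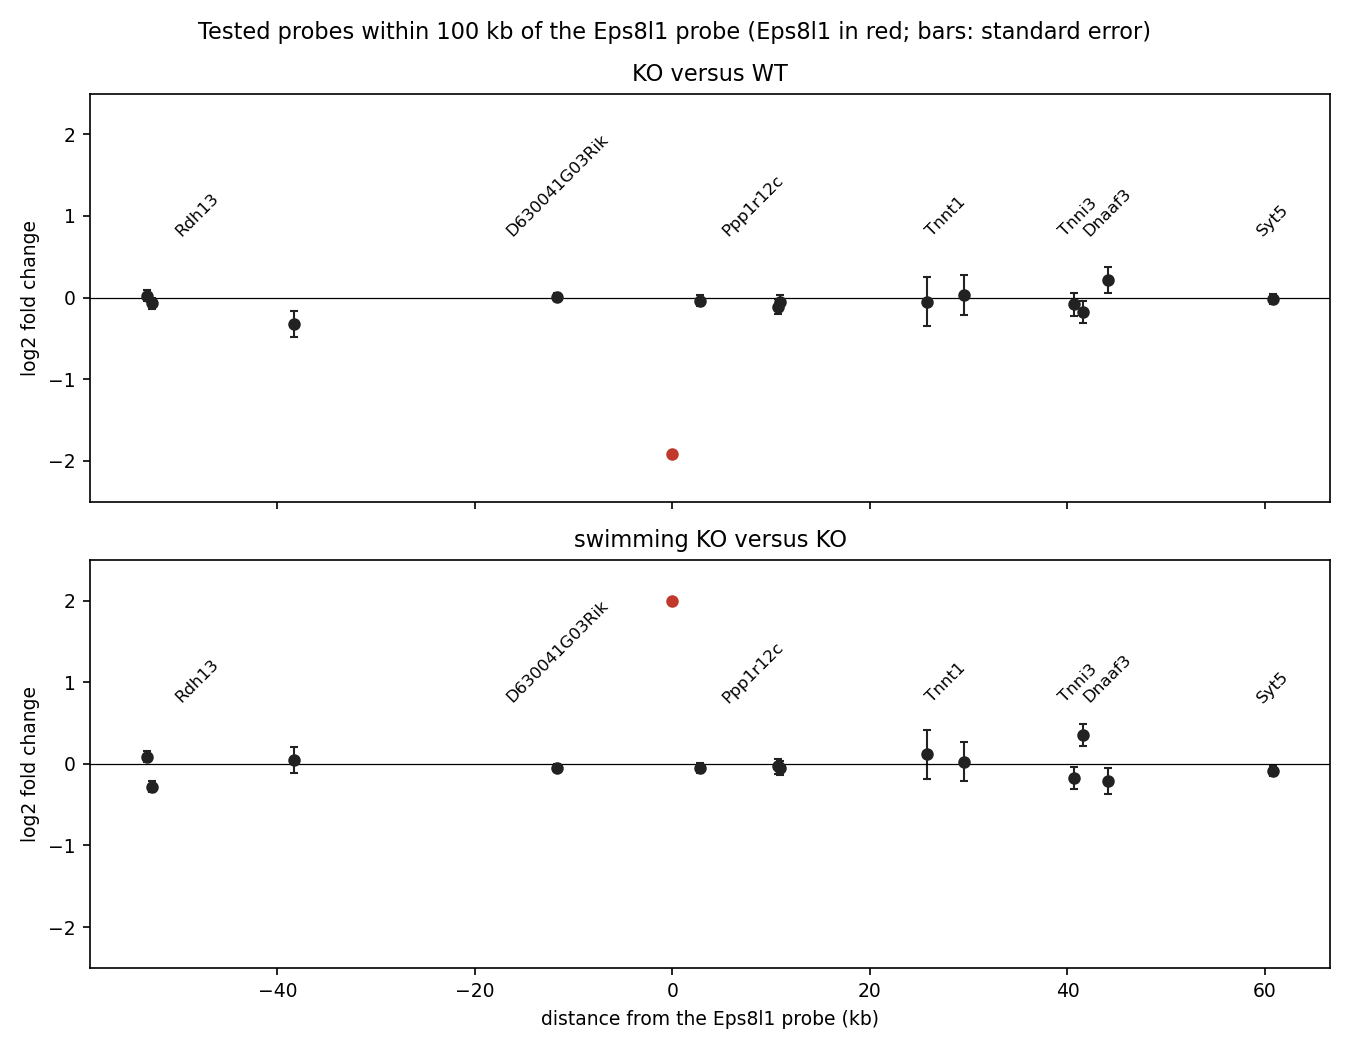
Log2 fold change (y axis) of tested probes against distance from the first Eps8l1 probe in kb (x axis), for KO versus WT (top) and swimming KO versus KO (bottom). Bars are standard errors, and Eps8l1, in red, has none. The 13 other probes stay between -0.33 and 0.35 in both panels while Eps8l1 sits at -1.92 and 1.99.

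The 5 other genes most like Eps8l1 over the 12 arrays, by Pearson correlation of normalized log2 signal among 30454 probes, were Sez6 (0.89), Top2a (0.88), Tcf7 (0.88), Creb5 (0.88) and Usp22 (0.86). Sez6 and Top2a were, like Eps8l1, well above background on 1 of 3 KO arrays and on all arrays of the other groups. Usp22 ranked 233 under 75th percentile scaling, while the other 4 stayed within the first 4 there. Under normexp the 5 ranked 11, 15, 8, 7 and 806, so none was among the 5 most alike. The 14 probes of the Eps8 partners had correlations with Eps8l1 between -0.49 and 0.41, and the points share arrays, slides and groups.

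The wider pathway was read from 7 lists holding 154 tested probes of 75 genes, and Diaph1, Diaph2 and Diaph3 had no probe. In KO versus WT 9 of 154 probes were called (5.84%), 5 higher and 4 lower, beside 5.47% of all tested probes. In swimming KO versus KO 27 were called, 14 higher and 13 lower (17.5%), and in swimming WT versus WT 40, 21 higher and 19 lower (25.97%). There were 14 calls in swimming KO versus swimming WT, 7 each way, and 40 in swimming KO versus WT, 20 each way. The interaction had 14, 4 higher and 10 lower. These stand beside the shares of all tested probes given above for the 14. None had an adjusted p under 0.05, and in KO versus WT and swimming KO versus KO none met the screening criterion. Without KO replicate 3 the counts were 4 in KO versus WT and 49 in swimming KO versus KO, and without KO replicate 1 they were 18 and 17. Without KO replicate 3, KO lay on slide 1 alone and swimming KO on slide 2. The shares of all tested probes in these fits are not given here, so these counts cannot be read as a result about the lists.

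On the Ras arm, where Sos1 acts, Hras, a Ras protein, was higher in KO than in WT by 0.38 (adjusted p = 0.846 from limma). It was lower in swimming KO than in KO by a log2 difference of -0.63 (adjusted p = 0.0802), or -0.62 when the slide was blocked, and its interaction was -0.65 (adjusted p = 0.477). Its means were 6.74 in WT, 7.12 in KO, 6.76 in swimming WT and 6.49 in swimming KO. Nf1, a GTPase activator that shuts Ras off, was higher in KO than in WT by 0.31 on 1 probe (adjusted p = 0.846), and Spred1, a Ras inhibitor, was lower in swimming KO than in swimming WT by a log2 difference of -0.39 (adjusted p = 0.562). Nras, like Hras a Ras protein, was lower in swimming KO than in swimming WT by a log2 difference of -0.23 (adjusted p = 0.65). Another Nf1 probe met the screening criterion in swimming KO versus WT at 1.07, and was at 0.59 with the slide as a block. Of 33 tested probes of this list, 3 were called in KO versus WT (9.09%, beside 5.47% of all tested probes), 12 in swimming WT versus WT (9 higher; 36.4%, beside 25.9%) and 7 in swimming KO versus KO (3 higher, 4 lower), where 21.2% stood beside 21.1%.

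On the Rac side, Cyfip1, a WAVE complex subunit that binds Rac, was higher in swimming KO than in KO by 0.41 on 1 probe (adjusted p = 0.139 from limma). Within slide 2 it was higher by 0.38, against KO replicate 3 alone. Another Cyfip1 probe had means of 11.75 in KO and 11.85 in swimming KO. Of 20 tested WAVE probes 3 were called in swimming KO versus KO, all higher. That share of 15% stood beside 21.1% of all tested probes (8.1% higher and 13% lower). In KO versus WT 0 of 20 were called, beside 5.47%. Elmo1, which works with Dock exchange factors on Rac, met the screening criterion on 1 probe in swimming WT versus WT at 1.20 and in swimming KO versus WT at 1.25, and these became -0.18 and -0.13 with the slide as a block.

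Upstream, among the EGF receptor family, Egfr was lower in swimming KO than in KO by a log2 difference of -0.17 (adjusted p = 0.161 from limma), or -0.15 and not called with the slide blocked. Nrg4, a ligand of ErbB4, had the smallest p of its list in KO versus WT (adjusted p = 0.846) and was well above background on 3 of 3 WT arrays and 0 of 3 KO arrays, so that no fold is given. Nrg1, a ligand of ErbB3 and ErbB4, was higher in swimming KO than in KO by 0.94 on 1 probe (adjusted p = 0.169), and by 0.30 with the slide blocked. Erbb4 met the criterion in swimming KO versus WT at 1.07 and was at 0.01 with the slide as a block. Among the I-BAR relatives of Baiap2, Mtss1l was higher in swimming KO than in KO by 0.23 (adjusted p = 0.152) and Mtss1 lower by a log2 difference of -0.20 (adjusted p = 0.162), and with the slide blocked these were 0.17 and -0.10, neither called. Among actin-capping and bundling genes, 1 of 25 probes was called in KO versus WT (4%, beside 5.47%), Capza2 at 0.45 (adjusted p = 0.846). In swimming KO versus KO 3 of 25 were called (12%, beside 21.1%), led by Vasp, which extends filaments, at -0.31 (adjusted p = 0.142). Blocking on the slide put Capza2 at 0.25 and Vasp at -0.16, neither called. Of other Eps8 partners, Usp6nl, a Rab5 regulator that binds Eps8, was the 1 of 10 probes called in swimming KO versus KO (beside 21.1% of all), at -0.17 (adjusted p = 0.178), and was at -0.15 and not called with the slide blocked.

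**Figure D5:**
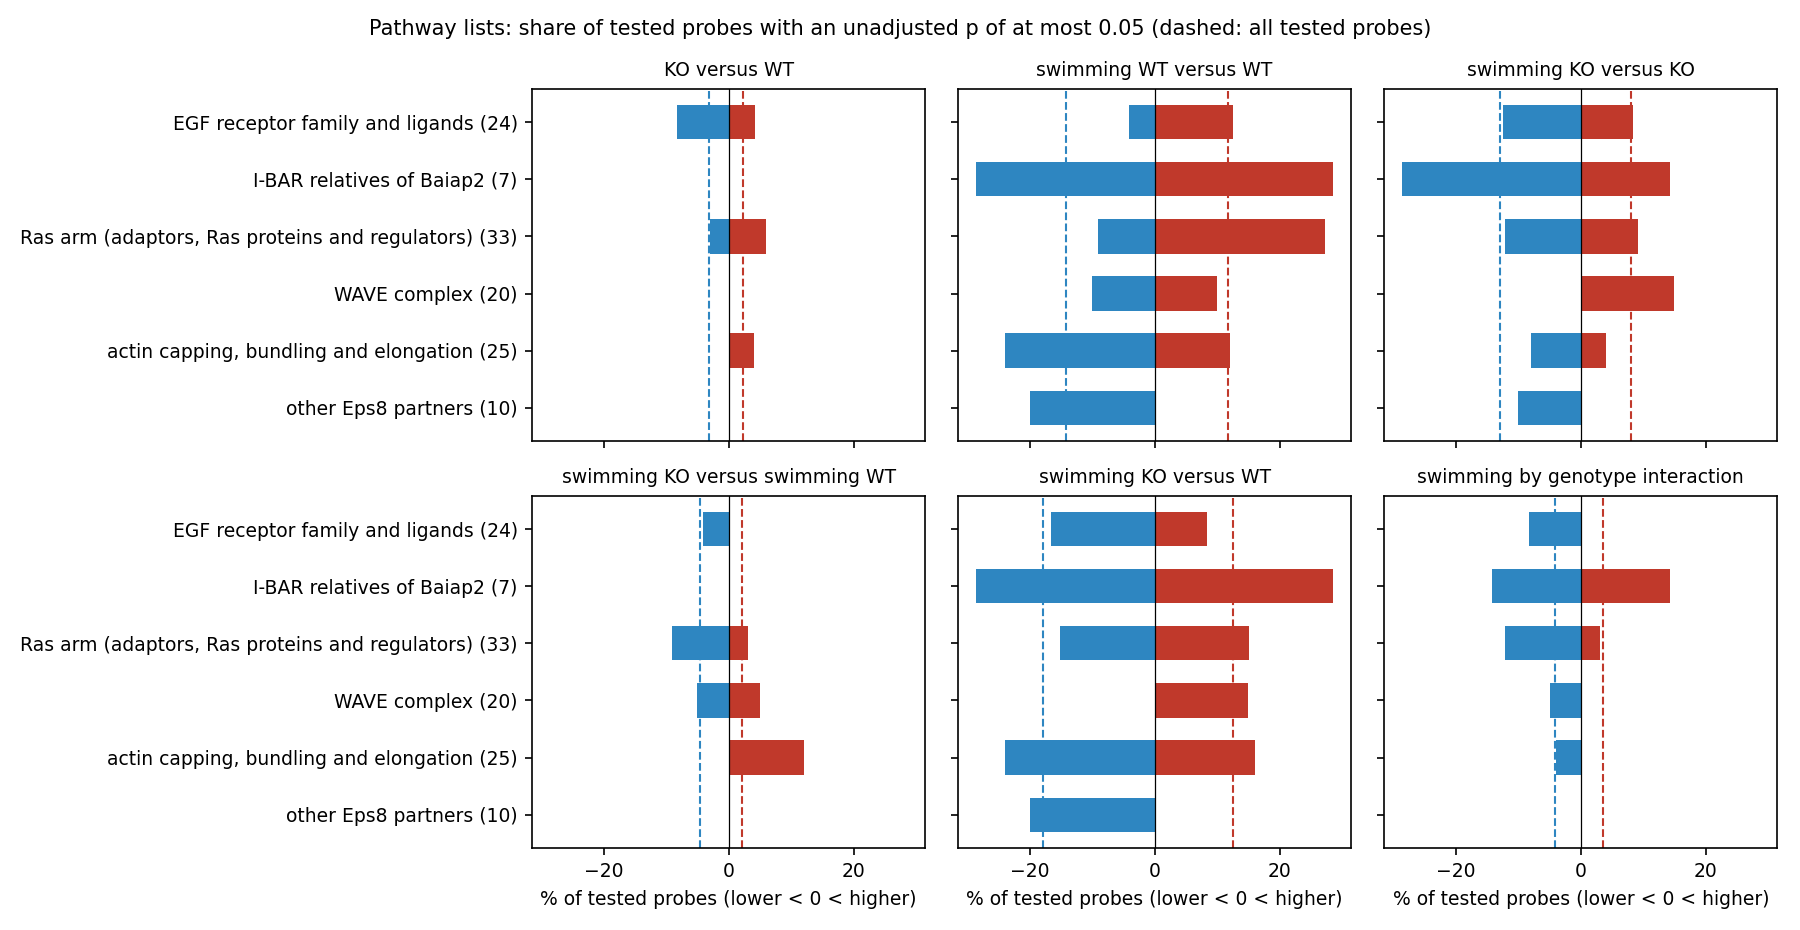
Share of tested probes (x axis, percent; lower to the left of 0, higher to the right) that limma called in 6 of the 7 lists (rows, number of tested probes in brackets), for 6 comparisons. Dashed lines give the share among all 35230 tested probes in each direction. In swimming KO versus KO the WAVE complex bar lies to the right, 3 probes higher of 20, and the I-BAR list rests on 7 probes.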

How the data were processed

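Total RNA of 12 hypothalami was measured on single-color arrays. The authors deposited scanner output, in which Feature Extraction 10.7.1.1, per the submitters' processing notes, gives the intensity of each spot after background subtraction within the array. The authors also deposited a log2 table, quantile-normalized in GeneSpring, and lists of their own comparisons with fold changes and p-values, which were not used, nor were the 24 per-sample columns in them. Here, processed signals without outlier spots were put on the log2 scale and quantile normalization was applied. To be tested, a probe had to be marked as well above background by the scanner on each of the 3 arrays of 1 group or more (35230 of 56605). The main model, in limma 3.58.1 (R 4.3.3), held the 4 group means, with Benjamini-Hochberg adjustment over every tested probe. The fit was tested on simulated data. Figures were drawn with matplotlib 3.10.9.

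Groups came from the sample labels. The labels number the arrays of a group as separate samples without naming the animal, so p-values measure the spread between these samples, part of which may be technical. Probes of a gene were kept apart and numbered by mean signal. Slides were read from the scanner output. Probe coordinates come from the annotation of the array (mm9). Same-numbered arrays did not deviate together (correlations -0.19 to 0.24), so numbers were not treated as pairs.

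The genes and lists were chosen with earlier results of these data known. The genes named are all probes of the 9 genes, some of the pathway genes that met the criterion or were among the 2 with the smallest p in a list, the 5 most like Eps8l1, those within 100 kb of it, and Asmt. Alternatives were the authors' table, normexp correction (offset 50), 75th percentile scaling, other detection filters, a trended prior, the methods' t-test, fits restricted to 2 groups, blocks for slide or for replicate number, keeping outlier spots, averaging a gene's probes, and leaving out each array. A detection limit for Eps8l1 and leaving out arrays for the lists were added after the data were seen. One of the pathway lists is counted in the totals and is not reported here on its own.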

Additional observations from a re-analysis of the deposited data

Results flagged for a closer look

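Eps8l1 probe 1 had a swimming by genotype interaction of 2.40 on the log2 scale, and it is listed here because all 3 swimming WT arrays lay below the WT mean while all 3 swimming KO arrays lay above the KO mean. The difference was not tested, since the gene was chosen for this pattern. WT and swimming WT values overlapped and lay on different slides, and 1 of 3 KO arrays was well above background.

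Sos2 probe 1 had an interaction of -0.211, with all 3 swimming WT arrays above the WT mean and all 3 swimming KO arrays below the KO mean. Its adjusted p was 0.553 (limma), so the difference between wild-type and knockout mice did not pass the correction. The value ranged from -0.235 to -0.185 when each array was left out in turn. On this probe too, WT and swimming WT values overlapped and lay on different slides.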

How the results depend on the processing

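Of the 14 tested probes of the partners, the count at an unadjusted limma p of 0.05 or less in KO versus WT (1) became 0 under a fixed or random slide block, 75th percentile scaling, normexp, the methods' t-test, no detection filter, or a fit of WT and KO alone. In swimming WT versus WT (4) it was 0 with either slide block and 1 with probes averaged per gene. For swimming KO versus KO (3) it was 1 with the slide block and 0 with probes averaged. For swimming KO versus swimming WT (4) it was 2 on the groups compared alone, 2 with the replicate number as a block and 1 with probes averaged. For swimming KO versus WT (6) it was 0 with either slide block and 1 with probes averaged, and in the interaction (1) it was 0 with probes averaged. The cause was not tested. With the replicate block the other counts were 1 in KO versus WT, 6 in swimming WT versus WT, 3 in swimming KO versus KO, 7 in swimming KO versus WT and 1 in the interaction, and 7 of 12 arrays correlated best with their own number. The methods' t-test and the fit on 2 groups give no interaction. Apart from the fixed slide block, the shares of all tested probes under these settings are not given here. The counts under them thus have no reference beside them.

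With the slide block, pathway counts of 154 were 4 (KO versus WT), 7 (swimming WT versus WT), 11 (swimming KO versus KO) and 2 (swimming KO versus WT). These stand beside 5.48%, 6.17%, 9.06% and 4.91% of all tested probes with the slide as a block. The interaction count was 22 under normexp, where the share of all tested probes is not given here. Eps8l1 under normexp was -0.64 (KO minus WT), 0.71 (swimming KO minus KO) and 0.87 (interaction), an alternative that adds 50 to every signal. The first Abi1 probe turned to -0.0061 in swimming WT versus WT and -0.067 in swimming KO versus WT, and the second Abi2 probe to 0.096 in swimming KO versus WT, with the slide as a block.

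Leaving out each array in turn gave, for the 14 probes, 0 to 1 calls in KO versus WT, 3 to 6 in swimming WT versus WT, 3 to 5 in swimming KO versus KO, 1 to 4 in swimming KO versus swimming WT, 2 to 7 in swimming KO versus WT and 1 to 2 in the interaction. The KO versus WT call was lost without WT replicate 1 or 3, KO replicate 3, any swimming WT array or swimming KO replicate 2. The highest swimming KO versus KO count came without KO replicate 3, and in swimming KO versus WT the count was 2 without WT replicate 3 and 3 without swimming KO replicate 2. The interaction count was 2 without WT replicate 2 or swimming WT replicate 1. Of the pathway probes, 4 to 18, 26 to 48, 13 to 49, 8 to 17, 29 to 48 and 9 to 19 were called in the same order, with 26 without WT replicate 1, 13 without KO replicate 2, 8 without swimming WT replicate 3 or swimming KO replicate 2, and 9 without swimming KO replicate 1. Eps8l1 differences stayed between -2.18 and -1.67 (KO minus WT), -0.67 and -0.16 (swimming WT minus WT), 1.74 and 2.22 (swimming KO minus KO), 0.24 and 0.71 (swimming KO minus swimming WT) and 2.15 and 2.66 (interaction), while swimming KO minus WT ran from -0.19 to 0.32. The count at the screening criterion was 0 throughout. For these fits the shares of all tested probes are not given here, so the counts have no reference beside them. Of the other alternatives to the main results, 191 gave the same result within limits not given here, and 27 did not. The fits that leave out an array are not in that tally.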
